A study of Mus musculus with 20 samples.

Results

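The odorant receptors encoded on mouse chromosome 11 were followed through a sort of olfactory cells by recent activity. They were taken as the probe sets with a chromosome 11 row identifier and a symbol of the form Olfr plus a number, leaving out Olfr314 and Olfr220. This gave 77 receptors of 1080 odorant receptors and 22206 gene probe sets on the array. All 77 symbols were found in the RefSeq gene table (assembly GRCm38.p6), each as a gene on chromosome 11.

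An odorant receptor is a G protein-coupled receptor in the cilia of an olfactory sensory neuron, where odorant binding opens cation channels through Gnal, Adcy3 and cAMP. A mature neuron expresses 1 allele of 1 receptor gene, so the abundance of a receptor's mRNA in a sorted population follows the neurons that chose that receptor. All receptors on this chromosome belong to class II, the large group of receptors of terrestrial vertebrates, and they lie in tandem clusters of related genes. S100a5 encodes a calcium-binding protein of mature olfactory sensory neurons whose expression depends on neuronal activity.

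Cells came from the olfactory mucosa of S100a5-tauGFP mice, in which the fluorescent protein stands under the control of S100a5 and marks neurons that were recently active. The 4 groups of 5 samples were GFP+ and GFP- cells of mice stimulated with artificial cigarette smoke odor, and GFP+ and GFP- cells of mice given vehicle, which was filtered air. The 30 mice, of both sexes and 7 to 12 weeks old, stayed singly in clean air chambers for 40 h at 3.1 L/min. From 26 h on, odor or vehicle was delivered for 10 s every 20 min. Each sample was a pool of 3 mice, and 10 pools were each sorted into GFP+ and GFP- cells. The design text of the series names bourgeonal as the odorant, whereas the title and every sample label name artificial cigarette smoke odor, and the sample labels were followed here. GFP- cells are all cells without the reporter, so they hold inactive neurons together with other cells of the mucosa.

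The values are deposited log2 signals of Clariom S arrays, given below as log2 signal. A signal on an array can be compared between samples for 1 receptor, but not between receptors. The reporter's own gene followed the sort. S100a5 averaged 16.76 ± 0.34 on GFP+ arrays and 15.03 ± 0.69 on GFP- arrays (SD, n = 10 each), a change of 1.73 (SE 0.25, adjusted p = 2.4e-04) that was positive in 10 of 10 pools. Omp, a marker of mature sensory neurons, had 19.25 ± 0.51 in GFP+ cells and 19.08 ± 0.61 in GFP- cells and did not pass the test (adjusted p = 0.587). The highest gene signal of an array ran from 18.49 to 19.86. Omp lay near this top of the scale, where a difference may be understated, so its values do not show equal shares of mature neurons. The arrays numbered 5, 1 in each group, had median gene signals of 7.03 to 7.46 where the others had 6.06 to 6.39. Apart from these, vehicle GFP- 1, vehicle GFP+ 2 and odor GFP- 2 correlated least with their groups (mean r of 0.895, 0.946 and 0.951). The median signal of the array's background controls ran from 5.14 to 6.34, and a receptor at that level has only a bound.

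The sort separated the chromosome 11 receptors in both directions. Over all 10 pools, with odor and vehicle counted equally, 23 of 77 receptors were higher in GFP+ than in GFP- cells, 20 were lower and 34 did not pass an adjusted p of 0.05. Across all gene probe sets 4.61% were higher and 9.39% lower, and across all odorant receptors 41.6% were higher and 21.4% lower. The chromosome 11 receptors stood at 29.9% higher and 26.0% lower. Their median log2 change was 0.11, against 0.47 for all odorant receptors and 0.09 for all gene probe sets. The changes ranged from -6.74 to 4.69, with an SD of 2.02 over receptors. Of the 23 higher receptors 19 changed by more than 1 on the log2 scale, and of the 20 lower receptors 16 changed by more than that. In bulk samples a receptor's signal cannot tell fewer neurons of a type from less RNA in each. When the arrays were centred on the median of all odorant receptors, 14 receptors were higher and 29 lower, and when centred on the median of all gene probe sets, 28 were higher and 17 lower. The median change of all gene probe sets was then -0.26 and 0.32.

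**Figure D1:**
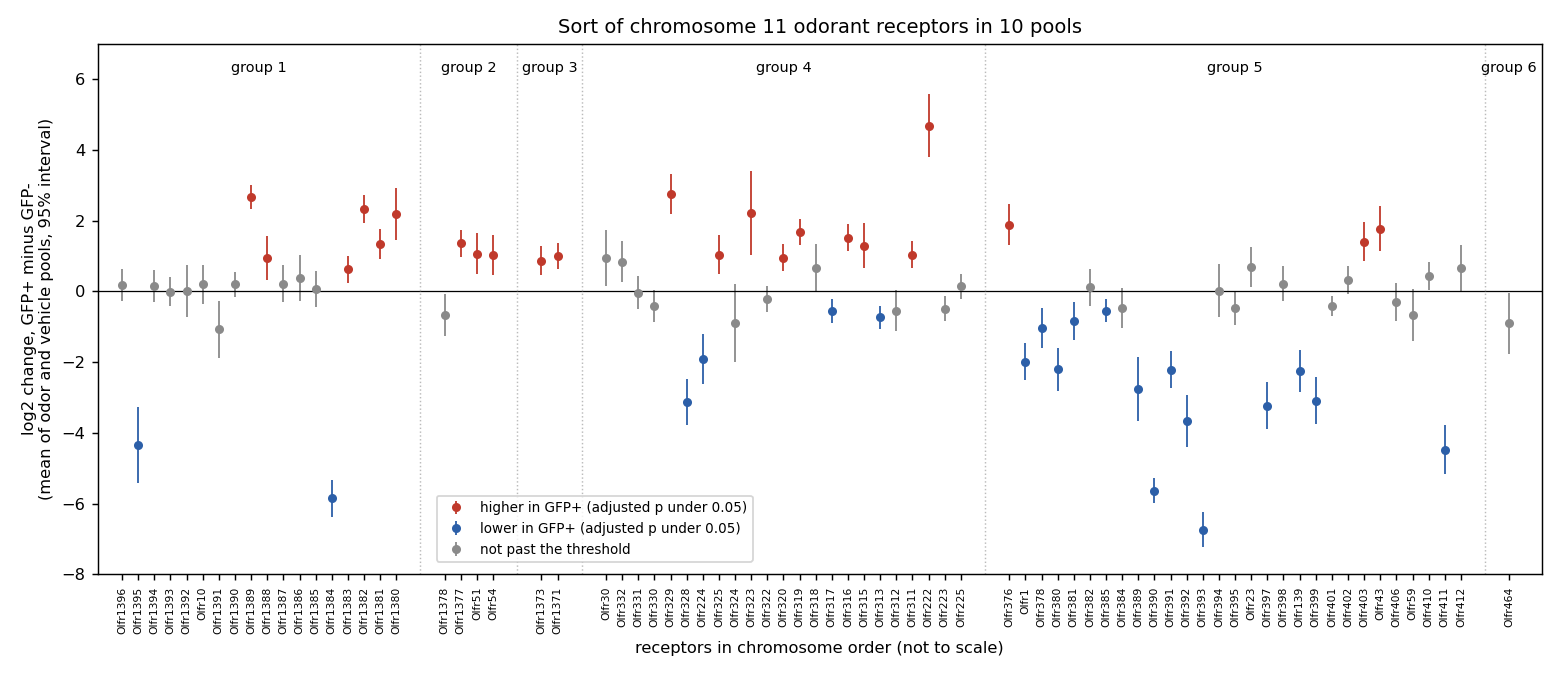
Log2 change of each of the 77 receptors (GFP+ minus GFP-, mean of odor and vehicle pools, 10 pools in all) with its 95% interval, in chromosome order; dotted lines separate 6 groups of neighbouring genes. Group 5 held 14 of the 20 receptors that were lower in GFP+ cells, and Olfr222 in group 4 had the highest value, 4.69.

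Olfr222, of the MOR256 family, had the highest change of the 77 receptors. Its signals were 14.13, 13.65, 15.02, 15.39 and 15.21 in odor GFP+ samples, against 9.98, 8.37, 9.94, 9.71 and 12.08 in odor GFP- samples of pools 1 to 5. In vehicle pools they were 14.44, 12.14, 15.22, 14.39 and 15.00 in GFP+ samples, against 7.74, 9.59, 8.19, 10.52 and 11.56 in GFP- samples. The lowest GFP+ signal lay above the highest GFP- signal, and the change was 4.69 (SE 0.41, adjusted p = 2.3e-06), or 25.8-fold.

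Olfr329, of the MOR275 family, had 14.33, 14.54, 13.42, 14.85 and 15.00 in odor GFP+ samples, against 10.60, 10.83, 11.20, 11.59 and 12.54 in odor GFP- samples. In vehicle pools it had 14.28, 14.40, 13.13, 11.70 and 14.71 in GFP+ samples, against 10.88, 11.47, 10.20, 11.10 and 12.40 in GFP- samples. Every pool was higher in GFP+ cells, though the GFP+ sample of vehicle pool 4 lay within the range of the GFP- samples. The change was 2.76 (SE 0.26, adjusted p = 3.6e-06).

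Olfr1389 and Olfr1382 are 2 further MOR256 receptors that rose. Olfr1389 averaged 10.99 ± 1.09 in GFP+ cells and 8.32 ± 0.83 in GFP- cells (n = 10 each, ± SD), with pool differences from 1.88 to 3.35 and an adjusted p of 5.4e-08. Olfr1382 averaged 10.76 ± 0.94 in GFP+ cells and 8.42 ± 1.04 in GFP- cells, a change of 2.33 (adjusted p = 9.5e-07). Olfr1380, at the edge of the same group of genes, averaged 10.55 ± 1.13 in GFP+ cells and 8.36 ± 1.29 in GFP- cells, a change of 2.19 (adjusted p = 4.5e-04). All 3 receptors were higher in GFP+ cells in 10 of 10 pools.

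Olfr323, of the MOR107 family, was less even. Its signals were 7.01, 8.13, 9.67, 4.94 and 5.55 in odor GFP+ samples, against 5.63, 6.10, 5.37, 4.63 and 4.92 in odor GFP- samples. In vehicle pools they were 4.54, 7.95, 9.87, 10.40 and 10.37 in GFP+ samples, against 6.30, 5.26, 5.58, 6.22 and 6.22 in GFP- samples. The GFP+ samples spanned from the background level to 10.40, and vehicle pool 1 went the other way. The change of 2.22 (SE 0.54) passed at an adjusted p of 0.0131, and no longer did without both pools numbered 5 (2.18, adjusted p = 0.0588).

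Olfr393, of the MOR135 family, had the lowest change. Its signals were 6.23, 5.60, 6.08, 6.16 and 6.92 in odor GFP+ samples, against 13.99, 11.90, 12.67, 12.64 and 14.67 in odor GFP- samples. In vehicle pools they were 5.67, 5.73, 6.70, 6.43 and 7.46 in GFP+ samples, against 11.41, 13.29, 12.50, 13.74 and 13.57 in GFP- samples. The GFP+ signals were near background on every array and the GFP- signals were far above it. The change was -6.74 (SE 0.23, adjusted p = 2.3e-10), which is a bound in so far as the GFP+ level is background.

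Olfr1384 (MOR256) and Olfr390 (MOR135) showed the same pattern. Olfr1384 averaged 5.37 ± 0.69 in GFP+ cells and 11.22 ± 0.85 in GFP- cells (n = 10 each, ± SD), a change of -5.85 (adjusted p = 1.6e-09). Olfr390 averaged 5.72 ± 0.61 in GFP+ cells and 11.35 ± 0.80 in GFP- cells, a change of -5.63 (adjusted p = 5.4e-11). The GFP+ signal was at or below the array's own background controls on 6 of 10 arrays for Olfr1384 and on 4 of 10 for Olfr390.

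Olfr411 of the MOR255 family, Olfr1395 of the MOR277 family and Olfr392 of the MOR135 family completed the 6 strongest decreases. Olfr411 averaged 6.88 ± 0.53 in GFP+ cells and 11.35 ± 1.49 in GFP- cells, a change of -4.47 (adjusted p = 2.8e-07). Olfr1395 averaged 8.24 ± 1.33 in GFP+ cells and 12.58 ± 1.62 in GFP- cells, a change of -4.35 (adjusted p = 2.4e-05), with pool differences from -6.23 to -0.23. Olfr392 averaged 6.47 ± 1.48 in GFP+ cells and 10.12 ± 1.38 in GFP- cells, a change of -3.66 (adjusted p = 3.6e-06). The GFP+ signals of Olfr411 and Olfr1395 were above their array's own background controls on all 10 arrays, and those of Olfr392 were at or below them on 3.

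**Figure D2:**
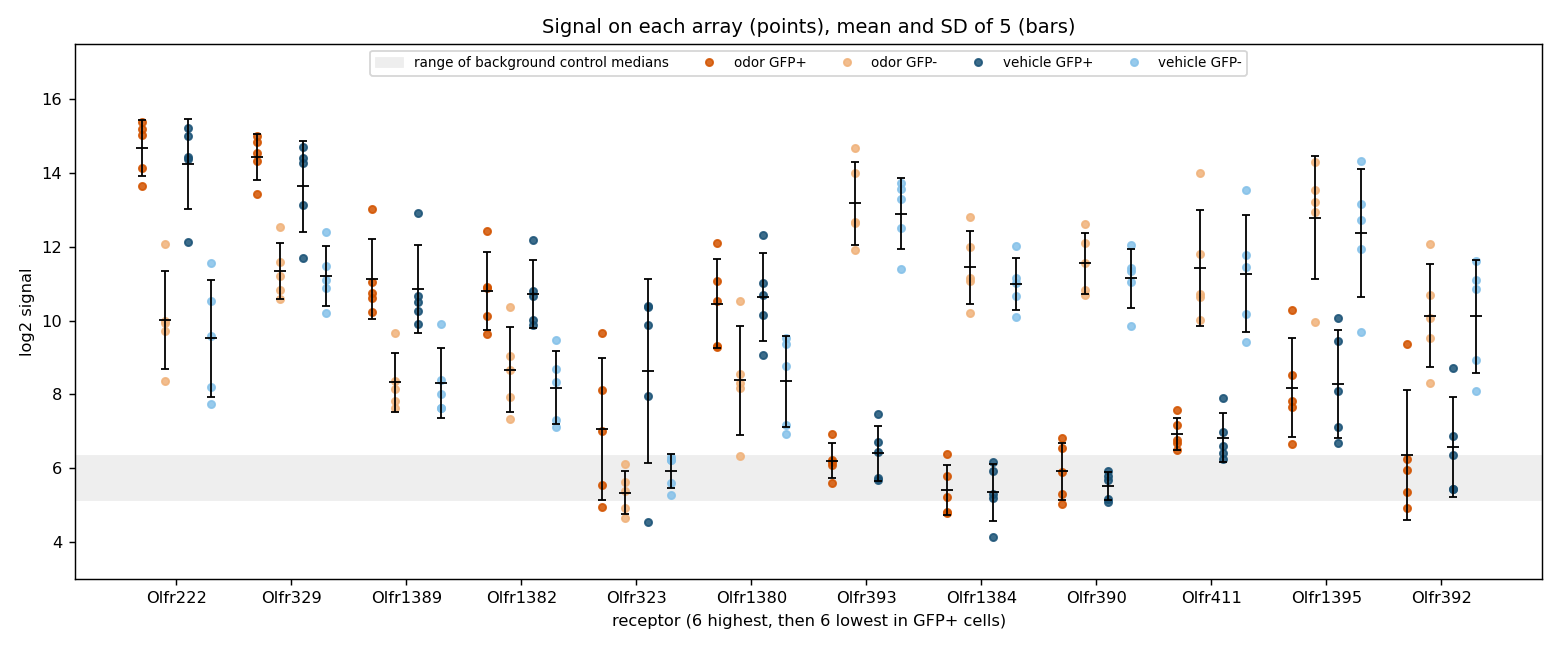
Log2 signal on each array (points) with mean and SD of 5 arrays (bars) for the 6 receptors highest and the 6 lowest in GFP+ cells, in the order odor GFP+, odor GFP-, vehicle GFP+ and vehicle GFP-; the grey band runs from the lowest to the highest background control median, 5.14 to 6.34. The GFP+ points of Olfr393, Olfr1384 and Olfr390 lie in or near the band.

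The background level set the size that a change could reach. The mean GFP+ signal of 12 of the 20 lower receptors was at or below the highest background control median, so their decreases may be lower limits in size. That median came from an array numbered 5, and arrays numbered 1 to 4 had 5.14 to 5.85. Against their own array's controls, the GFP+ signals of Olfr313 were above background on every array and those of Olfr393 on most. The mean GFP- signal of 4 of the 23 higher receptors, Olfr1377, Olfr51, Olfr323 and Olfr376, was also at or below the highest median. The GFP- signals of Olfr51 were above their own array's controls on most arrays. In 8 receptors both means were at or below the highest median. Among them Olfr385 was called lower, at -0.54. Its GFP+ signals were below their own array's controls on every array and its GFP- signals on most, so this call rests on signals near background. Olfr225, Olfr395 and Olfr223 were at or below the array's own background controls on all 20 arrays, so nothing can be said of their sort. At the other end Olfr394 had strong signals in both fractions, 12.86 ± 0.85 in GFP+ cells and 12.84 ± 0.76 in GFP- cells, and its change of 0.02 did not pass (adjusted p = 0.985). Olfr1396 likewise had 12.78 ± 0.49 in GFP+ cells and 12.59 ± 0.80 in GFP- cells (adjusted p = 0.657).

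The direction of change held in every pool for part of the receptors, counted here over all 77, called or not. Olfr332, higher in every pool, and Olfr401, lower in every pool, are among them and did not pass over all pools. In 16 receptors all 10 pools were higher in GFP+ cells, where 2.77% of all gene probe sets and 30.8% of all odorant receptors did so. In 18 receptors all 10 pools were lower, where 6.4% of all gene probe sets and 15.2% of all odorant receptors did so. All 10 GFP+ arrays lay above all 10 GFP- arrays for Olfr1389, Olfr222 and Olfr376, a separation seen in 0.477% of all gene probe sets. They lay below all 10 GFP- arrays for 8 receptors, Olfr1384, Olfr328, Olfr390, Olfr393, Olfr397, Olfr139, Olfr399 and Olfr411, where 2.59% of all gene probe sets did so. The median change of the 77 receptors differed between pools. It was -0.47, 0.28, 0.20, -0.21 and -0.09 in odor pools 1 to 5, and 0.56, -0.56, 1.05, -0.23 and 0.18 in vehicle pools 1 to 5.

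Neighbouring genes were divided into 6 groups wherever consecutive receptors lay more than 1 Mb apart in the RefSeq table. The first group, from Olfr1396 to Olfr1380, held 18 receptors, of which 6 were higher and 2 lower. The median change of 0.205 turned to -0.14 when the arrays were centred on odorant receptors. The second, Olfr1378 to Olfr54, had 3 higher of 4, led by Olfr1377 at 1.36 (adjusted p = 8.3e-05), while Olfr1378 at -0.66 did not pass (adjusted p = 0.142). Centred on odorant receptors the second group had 1 higher and 1 lower, the lower one being Olfr1378 at -1.01 (adjusted p = 0.027). In the third, Olfr1373 and Olfr1371 were both higher, by 0.87 and 1.01 (adjusted p = 0.0071 and 9.9e-04), and neither passed under centring on odorant receptors. Olfr1373 also failed without both pools numbered 5 (adjusted p = 0.0569).

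The fourth group, Olfr30 to Olfr225, held 23 receptors, 9 higher and 4 lower, with a median of 0.68. Centred on odorant receptors it had 6 higher and 7 lower. The fifth, Olfr376 to Olfr412, was the largest with 29 receptors and went mostly the other way, with 3 higher and 14 lower and a median of -0.54. This median was -0.49 after quantile normalization. Centring moves the change of every receptor by the same amount. The median was then -0.89 with arrays centred on odorant receptors and -0.31 when centred on all gene probe sets. Olfr464 stood alone as the sixth group, with a change of -0.91 that did not pass (adjusted p = 0.176). It passed as lower under 5 of the alternatives, with changes from -1.25 to -1.01 and adjusted p from 0.00971 to 0.0476, among them leaving out vehicle pool 1 (-1.19, adjusted p = 0.0307).

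Within a group, calls ran in short stretches and also switched between neighbours. Of 71 adjacent pairs, 20 passed in the same direction and 6 in opposite directions, and the median gap between neighbours was 1.275 on the log2 scale. These counts are a description and were not set against what the call rates alone would give. The longest stretches were the 5 lower receptors from Olfr389 to Olfr393, the 4 lower receptors from Olfr1 to Olfr381 and the 4 higher receptors from Olfr1383 to Olfr1380. Of the opposite pairs, Olfr1384 at -5.85 lay beside Olfr1383 at 0.62 (adjusted p = 0.0338), a weak call that centring on odorant receptors ended. Olfr329 at 2.76 lay beside Olfr328 at -3.13 (adjusted p = 4.2e-06). Olfr376 at 1.89 (adjusted p = 1.7e-04) lay beside Olfr1 at -1.98 (adjusted p = 5.0e-05). The array's annotation does not show whether probe sets of closely related neighbours share targets, and this was not checked here.

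Older names of the receptors, which group them by sequence likeness into MOR families, gave a second view. The split by family was noticed after the values were seen and is a description without a test. The 17 MOR135 receptors all lay in the fifth group, and no other MOR135 receptor was found on the array. Of these, 11 were lower and 1, Olfr376, was higher, with a median of -1.04, and of -0.85 after quantile normalization. Under centring, which moves every change by the same amount, it was -1.39 on odorant receptors and -0.82 on all gene probe sets. Beside Olfr393, Olfr390 and Olfr392, the decreases included Olfr397 at -3.23 and Olfr389 at -2.75. In the MOR255 family of 6, Olfr411, Olfr399 and Olfr139 were lower and none was higher, and the median was -1.33. Centred on all gene probe sets it had 2 higher and 3 lower, and the median was then -1.10.

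Olfr376, at the start of the fifth group, was the exception among the MOR135 receptors. Its signals were 7.17, 6.34, 6.01, 6.50 and 8.14 in odor GFP+ samples, against 5.69, 4.78, 4.58, 4.12 and 4.54 in odor GFP- samples. In vehicle pools they were 6.45, 5.82, 6.29, 6.29 and 8.61 in GFP+ samples, against 4.63, 4.96, 5.01, 5.15 and 5.21 in GFP- samples. The GFP- signals were at or below background on all 10 arrays, so its change of 1.89 (SE 0.27) is a lower limit. Its neighbour Olfr1 averaged 6.51 ± 0.63 in GFP+ cells and 8.49 ± 1.05 in GFP- cells, with a negative difference in 10 of 10 pools.

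MOR256 was the family with most members on the chromosome. Of its 20 receptors 7 were higher and 2 lower, with a median of 0.205 that turned to -0.14 under centring on odorant receptors. The 28 MOR256 receptors on other chromosomes had 13 higher and 5 lower, with a median of 0.45. Of the 4 MOR285 receptors, Olfr319, Olfr316 and Olfr320 were higher, by 1.68, 1.53 and 0.96, and 2 of the 4 passed when centred on odorant receptors. Olfr318 at 0.68 did not pass (adjusted p = 0.196). The 2 MOR125 receptors, Olfr403 and Olfr43, were both higher, by 1.41 and 1.78 (adjusted p = 0.00143 and 7.0e-04).

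**Figure D3:**
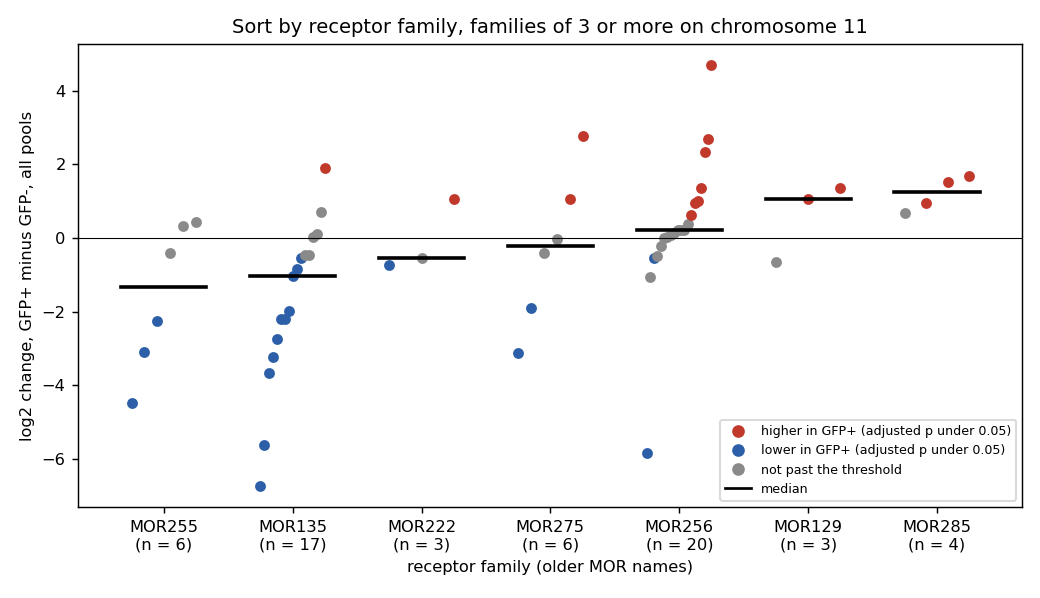
Log2 change (GFP+ minus GFP-, all 10 pools) of each receptor in the MOR families with 3 or more members on the chromosome, with family medians as bars. MOR135 had 11 of 17 receptors lower in GFP+ cells, and MOR285 had 3 of 4 higher.

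Promoter sequence was set beside the sort for the receptors with a RefSeq window. Receptor promoters are known for homeodomain sites, bound by Lhx2 and Emx2, and for Olf/Ebf sites, bound by the Ebf factors. Windows of 250 bases before the annotated start were available for 67 of the 77 receptors, 68 windows in all. In 45 of these the start was the ATG of the coding sequence, so only the other 23 begin at an annotated transcript start. The 4 windows below are those of the 2 highest and the 2 lowest of the sorted receptors that have such a start, given 5′ to 3′ from RefSeq (GRCm38.p6), with matches to the homeodomain motif TAATNA on either strand in capitals.
Olfr329, chr11:58543484-58543733, minus strand: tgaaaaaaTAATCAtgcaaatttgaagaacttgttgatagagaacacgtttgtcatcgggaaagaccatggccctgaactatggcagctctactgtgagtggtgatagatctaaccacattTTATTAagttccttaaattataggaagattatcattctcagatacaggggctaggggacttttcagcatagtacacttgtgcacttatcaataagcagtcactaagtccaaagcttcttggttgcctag
Olfr1389, chr11:49430177-49430426, plus strand: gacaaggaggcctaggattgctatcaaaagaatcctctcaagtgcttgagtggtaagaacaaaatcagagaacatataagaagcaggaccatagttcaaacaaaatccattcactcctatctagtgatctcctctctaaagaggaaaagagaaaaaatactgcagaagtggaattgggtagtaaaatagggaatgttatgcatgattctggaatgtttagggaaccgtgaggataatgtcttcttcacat
Olfr1384, chr11:49513368-49513617, plus strand: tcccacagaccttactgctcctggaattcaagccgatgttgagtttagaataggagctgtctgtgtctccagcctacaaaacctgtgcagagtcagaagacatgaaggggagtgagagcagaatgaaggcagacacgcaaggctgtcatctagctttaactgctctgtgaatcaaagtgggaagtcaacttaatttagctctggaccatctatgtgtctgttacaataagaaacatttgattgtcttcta
Olfr392, chr11:73816878-73817127, minus strand: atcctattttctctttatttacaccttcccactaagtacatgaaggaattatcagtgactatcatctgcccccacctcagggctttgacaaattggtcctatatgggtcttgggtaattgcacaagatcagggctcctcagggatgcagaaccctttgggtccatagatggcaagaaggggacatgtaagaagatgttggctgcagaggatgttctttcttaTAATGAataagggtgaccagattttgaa
Olfr329 and Olfr1389 rose in GFP+ cells and Olfr1384 and Olfr392 fell. The motif occurred at 2 positions in the Olfr329 window, at 1 in the Olfr392 window and at none in the others.

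Over the chromosome, TAATNA was present in 47 of 68 windows (69.1%), against 64.1% of windows of other odorant receptors and 24.4% of all RefSeq promoter windows of that length. The motif is rich in A and T, and the windows were not matched for base composition. Median GC content was 38.8% in windows of higher receptors, 41.2% in those of lower receptors and 37.6% in the others. Among windows starting at a transcript start other than the ATG, 15 of 23 held the motif. By sort, over all 68 windows, 11 of 19 windows of higher receptors, 14 of 18 of lower receptors and 22 of 31 of the others held it. Among the 23 windows at a transcript start other than the ATG, these were 3 of 4, 6 of 10 and 6 of 9. The order of higher and lower receptors thus differed between the 2 sets of windows, and no difference was tested. The Olf/Ebf motif, here TCCC and GGGA with any 2 bases between them and searched on both strands, was found in 0 of 68 windows, against 0.467% of other receptor windows and 0.779% of all windows.

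The sort was next taken in odor and in vehicle pools alone, which share no samples. In odor pools 16 receptors were higher and 16 lower, where 2.07% of all gene probe sets were higher and 5.82% lower. In vehicle pools 17 were higher and 15 lower, where 2.26% were higher and 6.86% lower. The shares over all odorant receptors were 30.5% higher and 17.1% lower in odor pools, and 33.7% higher and 15.7% lower in vehicle pools. Both conditions called 13 receptors higher and 15 lower, and 0 receptors were called in opposite directions. Across the 77 receptors the odor-pool and vehicle-pool changes had r = 0.982 and rho = 0.964, with the same sign in 70. The receptors are not independent replicates, and no p is given. Without odor pool 2 or odor pool 4 the higher receptors in odor pools were 10. Without vehicle pool 3, or without both pools numbered 5, those in vehicle pools were 11. Centred on odorant receptors, the counts were 11 higher and 18 lower in odor pools, and 11 higher and 17 lower in vehicle pools.

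A few receptors passed in 1 condition alone. Olfr325, Olfr315 and Olfr311 were higher in odor pools and did not pass in vehicle pools. Olfr315 of the MOR278 family changed by 1.67 in odor pools and by 0.92 in vehicle pools, and Olfr311 of the MOR222 family by 1.30 in odor pools and 0.78 in vehicle pools. Olfr51, Olfr332, Olfr323 and Olfr403 were higher in vehicle pools and did not pass in odor pools. Olfr403 changed by 1.24 in odor pools and 1.58 in vehicle pools. Olfr313 was lower in odor pools, at -0.79, and did not pass in vehicle pools, at -0.67. The difference between the conditions passed for none of these 8 receptors in its own test, given next.

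**Figure D4:**
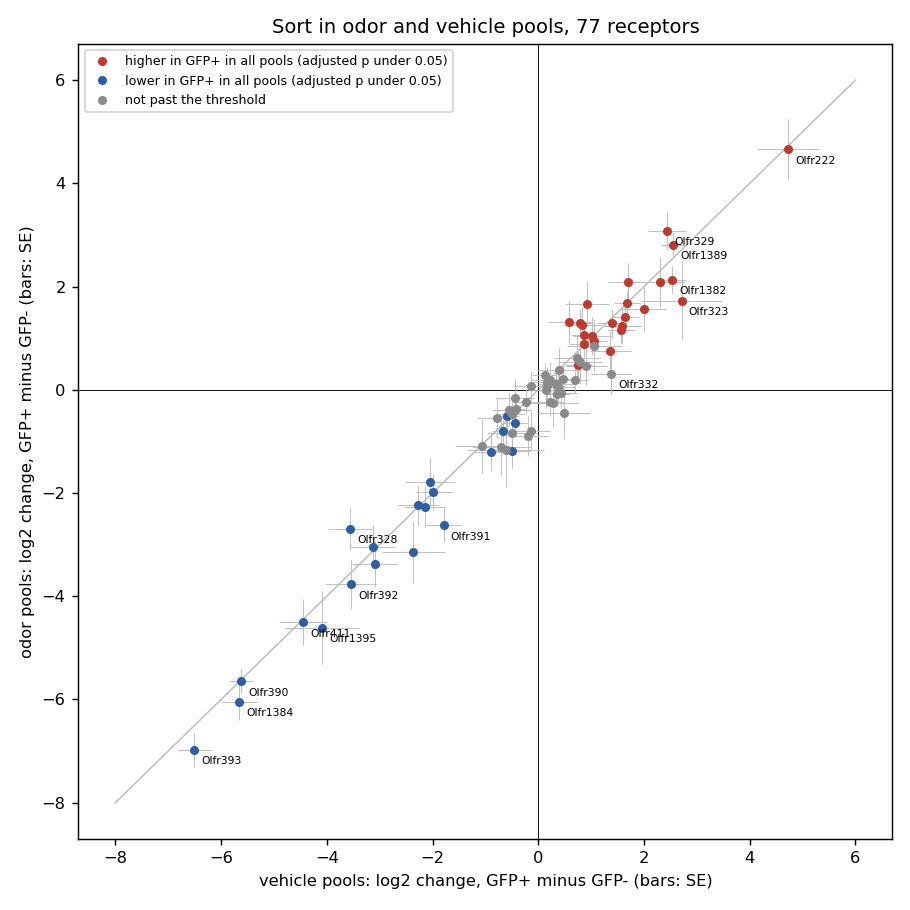
Log2 change (GFP+ minus GFP-) of each of the 77 receptors in 5 odor pools (vertical axis) against 5 vehicle pools (horizontal axis), with standard errors and the line of equal change; colours give the call over all pools. The points follow the line, from Olfr393 at -6.98 in odor and -6.50 in vehicle pools to Olfr222 at 4.66 in odor and 4.72 in vehicle pools.

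The question of the design is which receptors' neurons become GFP+ when the odor is present, which appears as a difference between odor and vehicle pools in the GFP+ minus GFP- change. No receptor on the chromosome passed. By limma, 0 of 77 had an adjusted p under 0.05, and all adjusted p were 1. An unadjusted p under 0.05 was found for 0 of 77, where 1.21% of all gene probe sets and 4.07% of all odorant receptors had one. No gene probe set at all passed (0%). The median difference was -0.13 for the 77 receptors, -0.13 for all odorant receptors and 0.01 for all gene probe sets, and 52 receptors were negative and 25 positive.

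The precision of 5 pools against 5 bounds what could be seen. The 95% interval lay wholly within -1 to 1 on the log2 scale for 16 receptors and within -2 to 2 for 68. Its upper end was under 1 for 43 receptors and under 2 for 75, the highest being 2.15. For receptors with an upper end above 1, an increase of 1 on the log2 scale lay within the interval. The counts cover all receptors of the chromosome, those at background in both fractions included. For these a narrow interval does not bound a response of their neurons.

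Olfr332, of the MOR284 family, had the smallest p. Its GFP+ minus GFP- differences were 0.08, 0.49, 0.07, 0.81 and 0.10 in odor pools, against 3.58, 0.83, 1.76, 0.08 and 0.64 in vehicle pools. All 10 were positive, the ranges overlapped, and vehicle pool 1, which holds an array that correlated poorly with its group, was the highest. The odor effect was -1.07 (95% interval -2.25 to 0.11, unadjusted p = 0.0724), and -0.52 without vehicle pool 1. Olfr391 followed at -0.83 (-1.85 to 0.19, unadjusted p = 0.1004), with its GFP+ signals at or below background on all 10 arrays. Olfr328 had 0.87 (-0.41 to 2.15, unadjusted p = 0.1646) and Olfr311 had 0.52 (-0.26 to 1.30, unadjusted p = 0.1726).

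**Figure D5:**
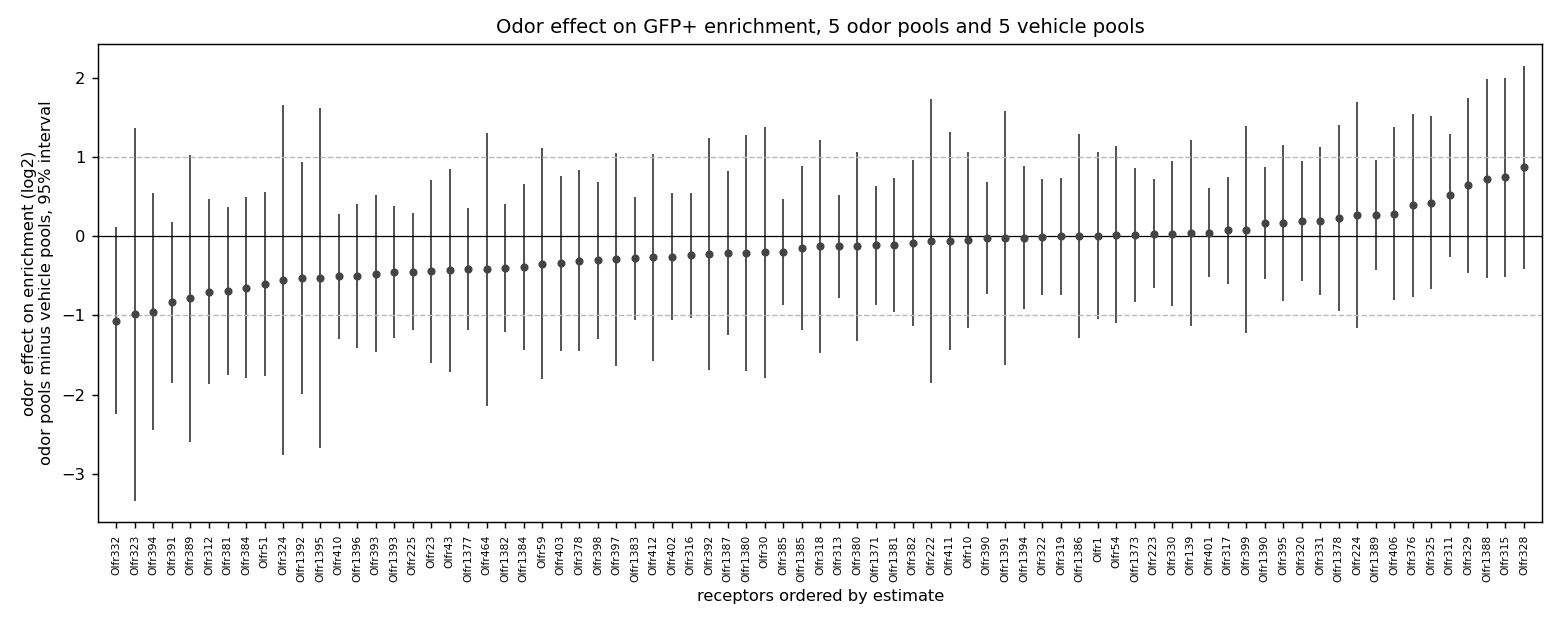
Odor effect on enrichment, the change (GFP+ minus GFP-) in 5 odor pools minus that in 5 vehicle pools, on the log2 scale with 95% intervals, for the 77 receptors ordered by estimate; dashed lines mark -1 and 1. All 77 intervals include 0, from Olfr332 at -1.07 to Olfr328 at 0.87.

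Odor and vehicle were also compared directly within each fraction. In GFP+ cells 0 of 77 receptors passed (0% of all gene probe sets did). An unadjusted p under 0.05 was found for 1 receptor, where 0.275% of all gene probe sets and 1.39% of all odorant receptors had one. This was Olfr328, with 9.54, 10.42, 9.42, 9.70 and 8.42 in odor GFP+ samples, against 8.92, 8.48, 8.20, 8.14 and 8.10 in vehicle GFP+ samples. Of the 5 odor samples 4 lay above every vehicle sample, and odor sample 5 lay within the vehicle range. The difference was 1.13 (95% interval 0.37 to 1.90, unadjusted p = 0.0073, adjusted p = 1). Even so, Olfr328 was lower in GFP+ than in GFP- cells in every pool, with changes of -2.69 in odor pools and -3.57 in vehicle pools. Olfr1388 had 1.27 (unadjusted p = 0.0843) and Olfr1396 had -0.49 (unadjusted p = 0.1243).

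The same-numbered GFP+ samples of odor and vehicle met the rule used here for pairing, which does not show that their mice were matched. A replicate block moved the unadjusted counts in GFP+ cells. With the block 10 of 77 receptors (13.0%) had an unadjusted p under 0.05, where 3.69% of all gene probe sets (820) had one. A term for the pools numbered 5 alone, in place of the block, gave 476 such gene probe sets, against 61 with neither. The share over all odorant receptors with the block is not given here. It was already above that of all gene probe sets without the block, so the 13.0% cannot be read as particular to chromosome 11. Again 0 receptors and 0 gene probe sets passed adjustment. The smallest adjusted p of a receptor was 0.993. Olfr328 had an unadjusted p of 5.6e-04 with the block, and Olfr1388 one of 0.0017. The others were Olfr315, Olfr325, Olfr330, Olfr311 and Olfr54 with positive differences, and Olfr51, Olfr1396 and Olfr389 with negative ones.

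In GFP- cells 0 of 77 receptors passed, and 0 had an unadjusted p under 0.05, where 0.135% of all gene probe sets had one. The smallest p belonged to Olfr323 at -0.58 (unadjusted p = 0.1262), Olfr1393 at 0.52 (unadjusted p = 0.2113) and Olfr1392 at 0.87 (unadjusted p = 0.2253). Over the 77 receptors the median difference reached 0.06 in GFP+ cells and 0.20 in GFP- cells.

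Other genes of the sensory neuron were set beside the receptors in the sort. Of 18 genes of olfactory transduction and receptor trafficking, 2 were higher in GFP+ cells and 0 lower, where 4.61% of all gene probe sets were higher and 9.39% lower. These were Pde1c, a calmodulin-dependent phosphodiesterase, at 0.97 (adjusted p = 0.0103), and Ano2, the olfactory calcium-activated chloride channel, at 0.72 (adjusted p = 0.0255). Gnal, Gnb1, Omp, Stoml3 and Gfy averaged 19.04 to 19.44 over all arrays, near the top of the scale, where a difference may be understated. Of 13 regulators of receptor choice, 0 were higher and 1 was lower, Lbr, the lamin B receptor, at -2.06 (adjusted p = 3.8e-07). No gene of these lists passed for the odor effect on enrichment.

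Markers of other cells were lower in GFP+ cells, beside the receptors that were lower. Of 7 markers of immature sensory neurons 5 were lower, with Gng8 at -4.12, Dpysl3 at -3.55 and Gap43 at -2.54. The mean signal of that list was 9.15 to 10.49 on GFP+ arrays and 10.18 to 13.22 on GFP- arrays. All 13 measured white blood cell markers were lower, led by Lcn2 at -11.12, Ngp at -10.78 and S100a8 at -10.22, with a mean list signal of 5.84 to 6.40 on GFP+ arrays and 12.10 to 13.13 on GFP- arrays. Lower too were 3 of 6 basal and cycling progenitor markers, 5 of 7 sustentacular, 6 of 7 microvillar and 3 of 4 endothelial and ensheathing markers, and none of these lists had a higher gene. The part of these cells in the receptor changes was not tested.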

How the data were processed

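Olfactory mucosa cells were measured in 20 samples of 10 pools, each sorted into GFP+ and GFP- cells. The labels' protocols state that 50 to 100 ng of RNA went into biotinylated cRNA. The submitters' processing notes name Affymetrix Expression Console. How it normalized and summarized the probes, and in which version, is not stated in any source used here. The values the authors deposited are on a log2 scale, 1 per probe set, and were not normalized again. Control rows (6640 of 28846) were left out, and 22206 gene probe sets were tested with no filter on dim ones. There are no detection calls, so 23 background control probe sets served as a guide. The number of arrays limits the precision.

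The GFP+ and GFP- samples of a pool were taken to be 2 sorts of the same mice, since the labels give 30 mice and 3 per pool. Tests used limma 3.58.1 in R 4.3.3 (lmFit, eBayes), with Benjamini-Hochberg adjustment over all gene probe sets at 0.05. Differences GFP+ minus GFP- of the 10 pools entered 1 fit with condition, and the 10 samples of each fraction entered a fit of odor against vehicle with no block. Deviations of same-numbered odor and vehicle samples correlated at 0.251, 0.522, 0.349, 0.157 and 0.862 in GFP+ cells, which counts as pairing (all above 0.1). In GFP- cells (number 2 at -0.378) and in pool differences they did not.

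RefSeq tables (GRCm38.p6) gave names, older family names, neighbours and promoter windows; no source used here gives the build of the array annotation, so none of its coordinates are used. The receptors, gene lists and tests were chosen with earlier results of these data known. Receptors named in full were the 6 highest and 6 lowest of those past the threshold in the sort, the 4 and 3 with the smallest p in the odor tests, the 3 with the highest and 3 with the lowest mean signal, the highest and lowest of each group of neighbours, and the 3 widest opposite pairs of neighbours. Other names follow counts or families and were chosen after their values were seen. A part of the rule on near-identical proteins was not used here. Alternatives were other scalings, a filter on dim probe sets, an intensity trend, array weights, blocks, leaving out each pool, and, chosen after seeing the data, a term for the pools numbered 5 and leaving out 3 pools with arrays in doubt.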

Additional observations from a re-analysis of the deposited data

Results flagged for a closer look

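Among the 32 named receptors, each with 5 odor pools and 5 vehicle pools, 64 groups of 5 differences were examined for a single pool far from the rest, and 1 was found. Chance gives about 1 in 20 groups, so this single flag is no excess. It was Olfr323 in vehicle pool 1, whose GFP+ minus GFP- difference was -1.752, while the other 4 vehicle pools had 2.69 to 4.29. In that pool the GFP+ signal was 4.543, against 7.953 to 10.401 in the other vehicle pools. The GFP- signal was 6.296, against 5.265 to 6.223 in the other vehicle pools. That GFP- sample is the array that correlated least with its group (mean r of 0.895), and the part of that array in the value was not tested. Without vehicle pool 1 the change of Olfr323 over all pools was 2.78, against 2.22 with it.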

How the results depend on the processing

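No called receptor changed sign under any of the 20 alternatives to the sort over all pools. Of its 43 calls, 29 were kept without the pairing of fractions (no replicate block), 33 without both pools numbered 5, 34 with arrays centred on odorant receptors, 39 after quantile normalization, 40 when centred on all gene probe sets, and 41 without the 3 pools of the arrays in doubt. The higher count of 23 became 14 without the replicate block and 14 with arrays centred on odorant receptors. Without the replicate block the higher counts were also 5 of 16 in odor pools and 6 of 17 in vehicle pools. Centring on odorant receptors gave 11 in vehicle pools, as did leaving out both pools numbered 5. Leaving out 1 pool at a time gave 20 to 26 higher and 17 to 24 lower over all pools, 10 to 18 higher and 14 to 18 lower in odor pools, and 11 to 20 higher and 14 to 15 lower in vehicle pools. Over all gene probe sets, the calls were 1023 higher and 2086 lower, against 371 and 1422 without the replicate block, 4307 and 1674 when centred on all gene probe sets, and 445 and 2828 when centred on odorant receptors. For the odor comparisons the replicate block changed no call, with 0 receptors and 0 gene probe sets passing, but in GFP+ cells it raised the gene probe sets at an unadjusted p under 0.05 to 820, against 61 without it. Of 837 values of named receptors, from the sort and the odor comparisons together, 790 stayed on their side of the threshold. The rest all came from the sort over all pools, where 590 values stayed. There 18 came to pass the threshold (Olfr332 under 6 alternatives, Olfr464 and Olfr223 under 5 each, Olfr1378 and Olfr395 under 1 each) and 29 no longer did, mostly Olfr1383 and Olfr1388. Fewer pools and the lost pairing follow from how the alternatives are built. So does the effect of centring, which moves the change of every receptor by the same amount. The cause was not tested otherwise. Signals near background limit the size of decreases.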
